A study of Rattus norvegicus with 22 samples.

Results

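The expression of 9 genes of cellular iron handling was followed in the hippocampus on the injured side after experimental traumatic brain injury (TBI). They were the uptake genes Tfrc, Tf and Slc11a2, the ferritin genes Ftl1 and Fth1, the export genes Cp and Slc40a1, and the iron sensors Aco1 and Ireb2. The 9 genes were selected by name with their expression across the 4 groups of these samples already known, so every fold change, adjusted p-value and count of them below is a description and not independent evidence. All 9 were among the 17172 genes of the count table, and all 9 were among the 12875 that passed the filter on low counts and were tested.

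Most cells take up iron as transferrin, the plasma carrier encoded by Tf, which binds the transferrin receptor encoded by Tfrc and is carried into endosomes, from which the metal transporter encoded by Slc11a2 moves iron into the cytosol. Iron that is not used at once is stored in ferritin, a shell of heavy chains (Fth1) that oxidize iron and light chains (Ftl1) that help to form the mineral core. Iron leaves the cell through ferroportin (Slc40a1), and the ferroxidase ceruloplasmin (Cp) oxidizes it on the way out. The iron regulatory proteins encoded by Aco1 and Ireb2 bind iron-responsive elements in the transcripts of several of these genes, stabilizing that of Tfrc and blocking the translation of the ferritins when iron is scarce, so a transcript level need not follow the protein. In the brain, oligodendrocytes and the choroid plexus make transferrin, astrocytes carry a membrane form of ceruloplasmin, and microglia store iron after bleeding.

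The animals were adult male Sprague-Dawley rats without a transgene. The TBI rats had a moderate lateral fluid percussion injury, a pressure pulse given to the dura through a craniectomy on the right side, and the sham rats had the same anesthesia and surgery with the craniectomy but no pulse. Polyadenylated RNA was sequenced from 2 sham and 4 TBI rats at day 1 (1 day after injury) and from 4 sham and 4 TBI rats at day 14, with 1 hippocampus for each sample, so the p-values measure the spread between these samples. Whole hippocampus was used, so fewer cells of a type and less RNA per cell cannot be told apart.

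Total counts per sample ran from 15065540 to 23743703. Neuronal markers were present in all 14 samples, with a summed level of 5161 to 13304 CPM, the counts of a gene scaled to a common library size with TMM factors. Markers of the choroid plexus, which lies against the hippocampus, set 3 samples apart. Their summed level was 9130 CPM in sham day 1 replicate 1, 7797 CPM in TBI day 14 replicate 3 and 1600.4 CPM in TBI day 14 replicate 2, and 25.5 to 43.2 CPM in the other 11. Values without those 3 samples, an alternative chosen after seeing the data, are given beside several results.

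Across the 9 genes, Cp and Ftl1 were higher and no gene was lower in TBI than in sham at day 1 (adjusted p under 0.05, edgeR), when 11.2% of all tested genes were called higher and 7.93% lower. At an unadjusted p under 0.05, 1 gene, Tfrc, was lower at day 1, and limma-voom and DESeq2 called 0 of the 9 lower. At day 14 Cp and Ftl1 were again higher and Tfrc was lower, against 4.07% of all tested genes called higher and 0.365% lower. The median log2 fold change of the 9 genes was -0.08 at day 1 and -0.00061 at day 14, beside -0.02 and -0.03 over all tested genes. The test of whether the TBI effect differed between the days called 0 of the 9, with 0 at an unadjusted p under 0.05 and 0 by limma-voom or DESeq2, and it called 3.68% of all genes in either direction. The share of all tested genes whose groups do not overlap was not counted. Where groups are said below to be separate, that describes the values only. With fewer sham samples at day 1, groups separate more easily there.

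**Figure D1:**
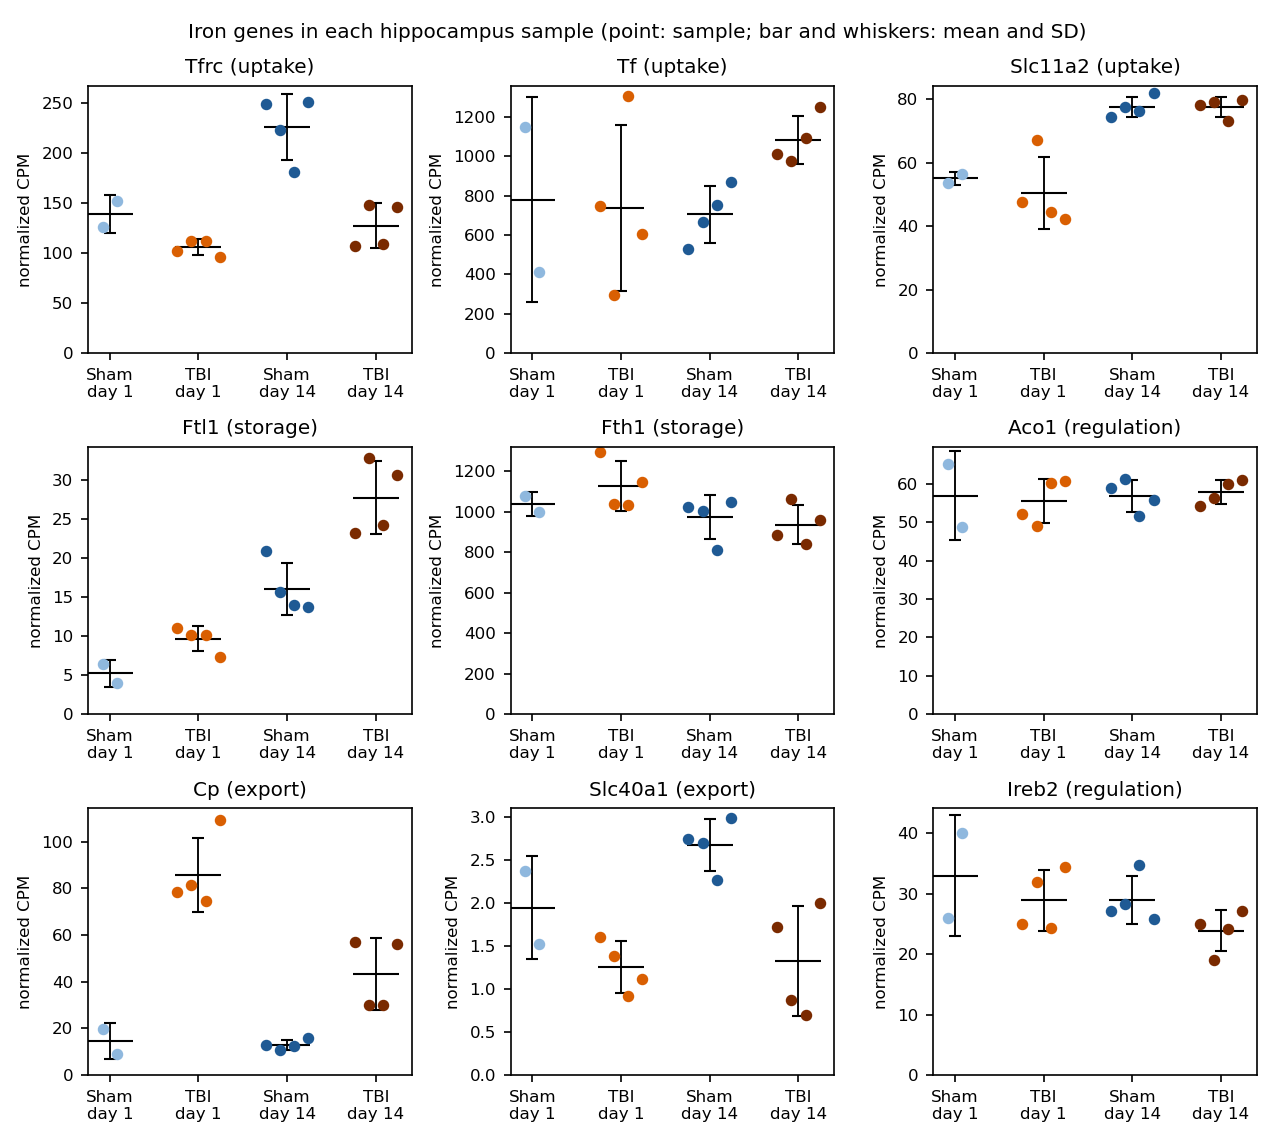
Normalized CPM of the 9 iron genes in each of the 14 samples, with 1 panel per gene and the 4 groups on the horizontal axis. Points are samples, and the bar and whiskers are the group mean and SD. Every TBI sample lies above every sham sample of its day for Cp and Ftl1, and every TBI day 14 sample lies below every sham day 14 sample for Tfrc and Slc40a1. The share of all tested genes that separate in this way was not counted.

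Of the uptake genes, Tfrc carried the clearest decrease. Its level was 125.5 and 152.2 CPM in the sham day 1 samples and 101.6, 112.3, 112.1 and 96.1 CPM in the TBI day 1 samples. The day 14 values were 248.7, 223.2, 180.3 and 250.9 CPM in sham and 106.7, 148.3, 108.5 and 145.9 CPM in TBI. The groups did not overlap at either day, and the sham day 14 samples stood above all other samples. The TBI level at day 14 was 1.77-fold lower than that of sham (log2 fold change -0.83 ± 0.14, SE, n = 4 and 4, adjusted p = 0.0025, edgeR). At day 1 the log2 fold change was -0.40 ± 0.17 (SE, n = 4 and 2, adjusted p = 0.121, edgeR), with a 95% interval from -0.77 to -0.03. The TBI effects at the 2 days differed by 0.43 ± 0.23 on the log2 scale (SE, adjusted p = 0.325, edgeR), so the larger decrease at day 14 was not shown to differ from that at day 1.

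Tfrc also differed between the sham groups, which bears on how its time course reads. Sham day 1 was 1.63-fold lower than sham day 14 (log2 fold change -0.70 ± 0.18, SE, n = 2 and 4, adjusted p = 0.0171, edgeR). Without sham day 1 replicate 1, the sample with the highest choroid plexus level, this difference was -0.57 and no longer passed the test (adjusted p = 0.104, edgeR), and without all 3 such samples it was -0.56 (adjusted p = 0.124, edgeR). Set against sham day 14 instead of its own sham, TBI day 1 was 2.14-fold lower for Tfrc (log2 fold change -1.10 ± 0.15, SE, n = 4 and 4, adjusted p = 3.38e-05, edgeR). In order of level, TBI day 1, TBI day 14 and sham day 1 overlapped between neighbours, and only sham day 14 was separate.

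The 250 bases before the RefSeq start of Tfrc (GRCr8, chr11:81690319-81690568, minus strand) are shown because Tfrc was the member called lower, with 2 short motifs in capitals.
Tfrc: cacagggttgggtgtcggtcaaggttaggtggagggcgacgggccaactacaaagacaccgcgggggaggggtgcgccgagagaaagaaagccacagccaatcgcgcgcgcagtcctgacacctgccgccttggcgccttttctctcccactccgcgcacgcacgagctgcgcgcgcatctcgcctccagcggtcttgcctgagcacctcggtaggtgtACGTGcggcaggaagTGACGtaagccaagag
The first motif in capitals, ACGTG, is the core bound by hypoxia-inducible factors. It begins 31 bases before the start, and 16.6% of 33469 rat promoter windows of that length held it on either strand. The second, TGACG, is the half-site of cyclic AMP response elements, begins 16 bases before the start and was in 18.2% of windows. Among them was that of Ireb2, on the opposite strand and 218 bases before the RefSeq start used. That start lies within the span annotated for Ireb2. A match is a description of the letters and was not tested as a binding site.

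Tf, the transferrin gene, varied more between samples of a group than between groups at day 1. The sham day 1 samples had 1150.3 and 410.2 CPM, and the TBI day 1 samples had 748.6, 296.7, 1305 and 603.3 CPM. At day 14 the sham samples had 530.1, 668.1, 750.2 and 871.4 CPM, and the TBI samples had 1012, 976, 1091 and 1252 CPM. The groups overlapped at day 1 and were separate at day 14, when every TBI sample was above every sham sample. The log2 fold change was -0.08 ± 0.44 at day 1 (SE, adjusted p = 0.92, edgeR) and 0.62 ± 0.36 at day 14 (SE, adjusted p = 0.551, edgeR). The 95% interval at day 14 ran from -0.15 to 1.39. When only the day 14 samples were fitted, Tf passed the test (log2 fold change 0.65, adjusted p = 0.0162, edgeR). It did not pass in the other 22 of 23 alternatives. Across all 23 the log2 fold change ran from 0.43 to 0.74.

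Both cell types known to make transferrin varied between the samples, and their markers did not rank the samples as Tf did throughout. Of the sham day 1 samples, the one with 1150.3 CPM of Tf was the one with 9130 CPM of choroid plexus markers. That sample also had the higher summed level of oligodendrocyte markers, 15314 CPM against 11392 CPM. Leaving it out turned the day 1 fold change of Tf from -0.08 to 0.85 and the difference of sham day 1 from sham day 14 from 0.15 to -0.78, neither past the test. Within TBI day 1, the summed level of the 12 oligodendrocyte markers was 15969, 5257, 9393 and 4398 CPM, while Tf was highest in replicate 3 and lowest in replicate 2. At that day 5 of the 12 markers were called lower than in sham, against 7.93% of all tested genes. The TBI day 14 samples with high choroid plexus totals, replicates 2 and 3, had 976 and 1091 CPM of Tf, and the highest, 1252 CPM, was in replicate 4 with a total of 33.7 CPM. At day 14 the oligodendrocyte markers overlapped between groups, at 15569 to 24729 CPM in sham and 11208 to 19933 CPM in TBI. The part of either cell type in the Tf values was not tested.

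**Figure D2:**
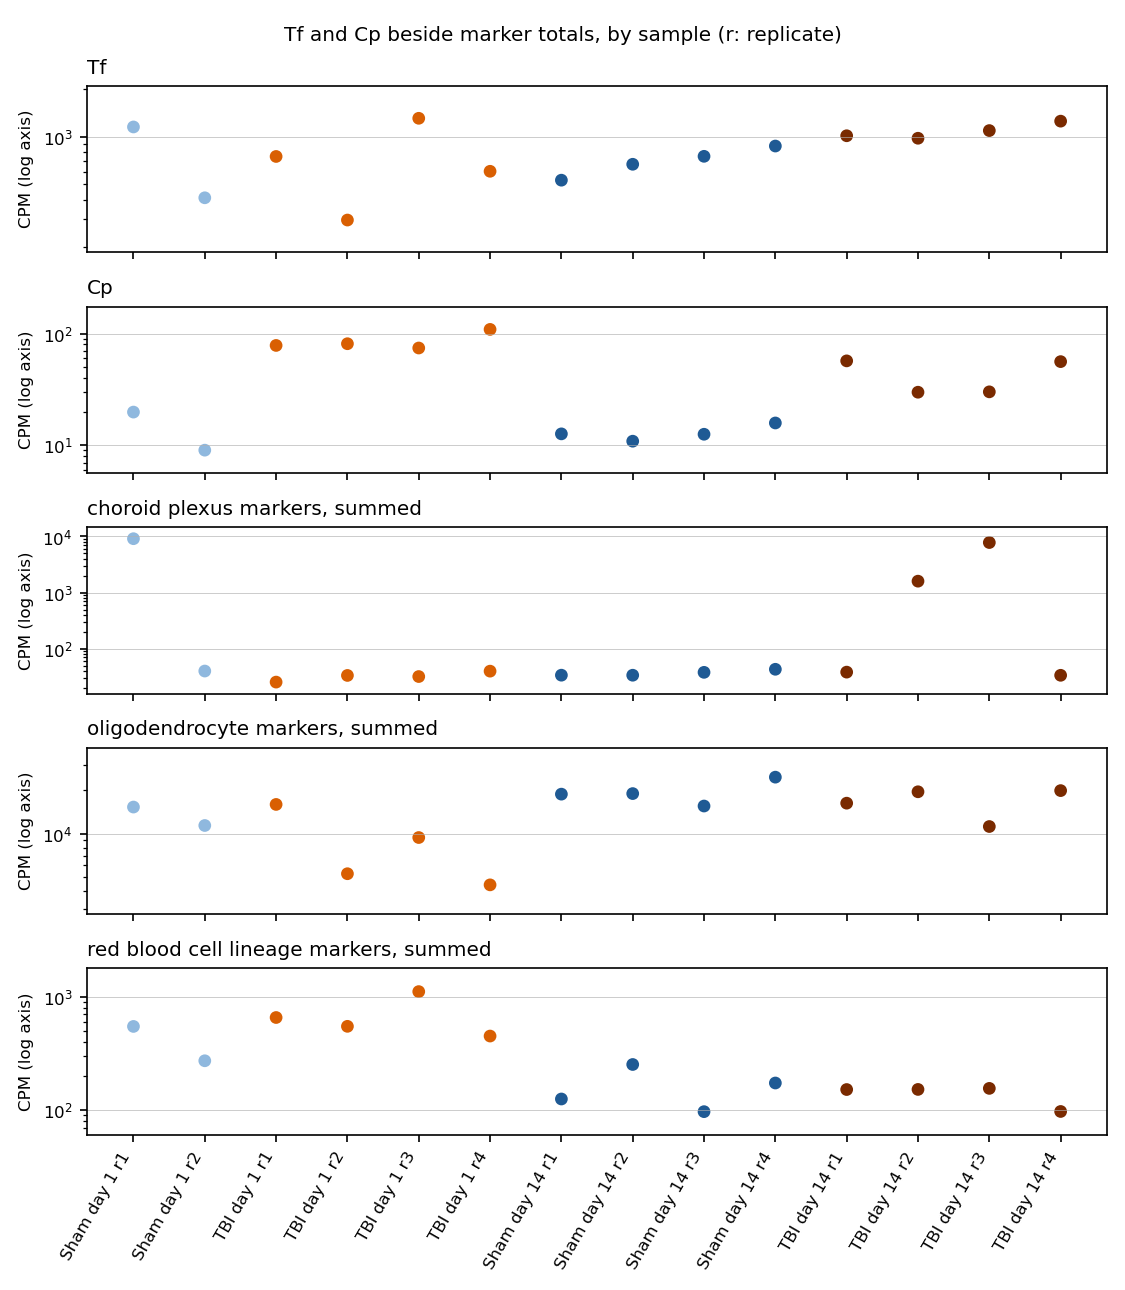
Normalized CPM of Tf and Cp, and the summed CPM of choroid plexus, oligodendrocyte and red blood cell markers, in each of the 14 samples on log axes. The choroid plexus total is 9130 CPM in sham day 1 replicate 1 and 7797 CPM in TBI day 14 replicate 3, and at most 43.2 CPM in 11 samples. The Cp level of TBI day 14 replicates 2 and 3, which have high choroid plexus totals, is below that of replicates 1 and 4.

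Slc11a2, the divalent metal transporter, differed between the days and not detectably between TBI and sham. At day 1 it was 53.7 and 56.6 CPM in sham and 47.7, 67.1, 44.4 and 42.2 CPM in TBI. At day 14 it ranged from 74.5 to 82 CPM in sham and from 73 to 79.8 CPM in TBI. All 8 day 14 samples were above all 6 day 1 samples, and TBI and sham overlapped at each day. The log2 fold change was -0.13 ± 0.16 at day 1 (SE, 95% interval -0.47 to 0.21, adjusted p = 0.599, edgeR). At day 14 it was -0.00061 ± 0.13 (SE, 95% interval -0.28 to 0.28, adjusted p = 1, edgeR). Sham day 1 was below sham day 14 (log2 fold change -0.49 ± 0.16, SE, adjusted p = 0.047, edgeR), a call that was lost in 13 of 23 alternatives with adjusted p-values up to 0.214. TBI day 1 was lower than sham day 14 by -0.62 ± 0.13 (SE, adjusted p = 0.0014, edgeR).

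Of the storage genes, the light chain moved and the heavy chain did not detectably. Ftl1 was at 6.41 and 4.01 CPM in sham day 1 and at 11.1, 10.1, 10.1 and 7.34 CPM in TBI day 1. The day 14 samples held 20.9, 15.7, 14.0 and 13.8 CPM in sham and 23.3, 32.8, 24.2 and 30.7 CPM in TBI. The 4 groups formed 4 steps without overlap, in the order sham day 1, TBI day 1, sham day 14 and TBI day 14. Ftl1 was 1.86-fold higher in TBI than in sham at day 1 (log2 fold change 0.89 ± 0.26, SE, n = 4 and 2, adjusted p = 0.0246, edgeR). The increase at day 14 was 1.73-fold (log2 fold change 0.79 ± 0.19, SE, n = 4 and 4, adjusted p = 0.0292, edgeR). The effects at the 2 days differed by 0.11 ± 0.31 on the log2 scale (SE, adjusted p = 0.882, edgeR), with a 95% interval from -0.56 to 0.78.

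Both calls on Ftl1 stood close to the threshold. At day 1 the call was lost without sham day 1 replicate 2, the lowest sample, with a log2 fold change of 0.59 (adjusted p = 0.293, edgeR), and when only the day 1 samples were fitted (0.92, adjusted p = 0.164, edgeR). The day 14 call was lost when sham replicate 2, 3 or 4 or TBI replicate 2 or 4 was left out, with log2 fold changes of 0.70 to 0.78 and adjusted p-values of 0.0956 to 0.107. Without the 3 samples with high choroid plexus totals it was 0.77 (adjusted p = 0.0881, edgeR). Microglial markers moved beside Ftl1 at day 14, when 7 of 10 were called higher, with a summed level of 1095 to 1898 CPM in TBI and 526 to 655 CPM in sham. At day 1, 2 of the 10 were called higher and 2 lower. Over all tested genes 4.07% were called higher at day 14, and 11.2% higher and 7.93% lower at day 1. Their part in the Ftl1 values was not tested.

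Of the comparisons fitted, the largest difference of Ftl1 was between the sham groups. Sham day 1 was 3.09-fold lower than sham day 14 (log2 fold change -1.63 ± 0.26, SE, n = 2 and 4, adjusted p = 0.00216, edgeR), and the call held in all 23 alternatives. As a result, the direction of the TBI effect at day 1 depended on the sham group it was set against. Against its own sham Ftl1 was higher, and against sham day 14 it was 1.66-fold lower (log2 fold change -0.73 ± 0.20, SE, n = 4 and 4, adjusted p = 0.00712, edgeR). The labels do not say what else differed between the sham groups, and time after surgery and any such difference cannot be told apart.

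Fth1 was read in larger counts than Ftl1, at 13334 to 25618 counts per sample against 87 to 581. Its level was 1080.3 and 998 CPM in sham day 1 and 1296, 1037, 1036 and 1147 CPM in TBI day 1. In the day 14 samples it was 1026, 1006, 812 and 1049 CPM in sham and 885, 1064, 841 and 958 CPM in TBI. All 4 groups overlapped. The log2 fold change was 0.12 ± 0.15 at day 1 (SE, 95% interval -0.21 to 0.45, adjusted p = 0.621, edgeR) and -0.06 ± 0.13 at day 14 (SE, 95% interval -0.32 to 0.21, adjusted p = 0.937, edgeR).

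The ratio of Ftl1 to Fth1 counts within a sample needs no scaling between libraries. Per 1000 Fth1 counts there were 5.94 and 4.02 Ftl1 counts in sham day 1 and 8.56, 9.74, 9.78 and 6.4 in TBI day 1. At day 14 there were 20.4, 15.6, 17.3 and 13.1 in sham and 26.3, 30.8, 28.8 and 32 in TBI. The ratio kept the 4 steps of Ftl1, with means of 4.98 ± 1.36 (SD, n = 2), 8.62 ± 1.58, 16.6 ± 3.04 and 29.5 ± 2.5 (SD, n = 4 each). Fth1 overlapped in all 4 groups, so these steps restate those of Ftl1 and add no separate evidence.

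Ferritin genes are known for near-identical copies. The copies here were found by name, and their likeness to Ftl1 and Fth1 was not measured. The count table holds 2 ferritin rows, Ftl1 and Fth1. RefSeq lists 22 further entries by the name of Ftl1 on 12 chromosomes of GRCr8, of which 15 are pseudogenes and 7 are protein-coding, 6 further entries by the name of Fth1, and 4 of the related Fthl17 family. None of these further entries has a row in the table. The ways in which the counting treated reads that match several places are not given in the sources used here. A read shared with a copy could have been dropped or assigned to a copy, so the small counts of Ftl1 are not a measure of light chain abundance beside the heavy chain, and changes in a copy cannot be told apart from changes in Ftl1.

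Cp, the ferroxidase, rose most of the 9 genes. It was at 19.8 and 9.04 CPM in sham day 1 and at 78.4, 81.3, 74.4 and 109.2 CPM in TBI day 1. By day 14 it was 12.7, 10.9, 12.5 and 15.8 CPM in sham and 57, 29.9, 30.1 and 56.2 CPM in TBI. TBI and sham were widely separate at each day, and the TBI day 14 samples fell between the sham and the TBI day 1 samples. Cp was 5.96-fold higher in TBI at day 1 (log2 fold change 2.58 ± 0.36, SE, n = 4 and 2, adjusted p = 0.000236, edgeR) and 3.33-fold higher at day 14 (1.74 ± 0.27, SE, n = 4 and 4, adjusted p = 0.000897, edgeR). The calls held in all 23 alternatives, in which the log2 fold change ran from 2.11 to 3.24 at day 1 and from 1.58 to 2.15 at day 14. The effect at day 1 exceeded that at day 14 by 0.84 ± 0.42 on the log2 scale, which did not pass the test (SE, adjusted p = 0.293, edgeR).

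The sham level of Cp did not detectably differ between the days, with a log2 fold change of 0.15 ± 0.32 for sham day 1 against sham day 14 (SE, 95% interval -0.54 to 0.84, adjusted p = 0.786, edgeR). It was -0.52 without sham day 1 replicate 1. Against sham day 14, TBI day 1 was 6.61-fold higher for Cp (log2 fold change 2.72 ± 0.28, SE, adjusted p = 3.32e-06, edgeR). Of the samples with high choroid plexus totals, the sham day 1 sample had the higher Cp value of its group, and the TBI day 14 samples had the lower values of theirs. Without these 3 samples the log2 fold change of Cp was 2.15 at day 14 and 3.23 at day 1, where 1 sham sample remained and was taken to vary like the other groups. The part of the choroid plexus in the Cp values was not tested. Of 9 astrocyte markers, 1 was called higher at each day, against 11.2% of all tested genes at day 1 and 4.07% at day 14. It was the filament gene Gfap, which rises in reactive astrocytes. Gfap was at 952 to 1558 CPM in sham day 1, 6987 to 13057 CPM in TBI day 1, 1258 to 1786 CPM in sham day 14 and 4259 to 7031 CPM in TBI day 14, and it was called higher at both days. The other 8 markers had a summed level of 5768 to 9172 CPM in sham day 1, 5873 to 7448 CPM in TBI day 1, 4403 to 5447 CPM in sham day 14 and 5212 to 6736 CPM in TBI day 14, with 1 called lower at day 1 and no other call. The part of astrocytes in the Cp values was not tested.

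A short stretch upstream of Cp is shown because Cp and Tf, both genes of proteins that the liver secretes, share a motif there. TTGCNNAA, a form of the C/EBP site, was in 9.22% of the 33469 windows on either strand. In the Cp window it lies 72 bases before the RefSeq start used (GRCr8, chr2:104368588-104368615, plus strand), within the span annotated for the gene, and in the Tf window 115 bases before the start (chr8:112695474-112695501, minus strand). The match is in capitals and lies on the opposite strand in both.
Cp: ttatttactcTTGTGCAAcattaaattg
Tf: tgcagggcgaTTGGGCAAttggactgcg
Promoter windows were found for 7 of the 9 genes, in 8 entries, and TTGCNNAA was in none of the other 6 entries. Ftl1 and Fth1 had no window, so nothing is said of motifs in the ferritin promoters. The STAT motif TTCNNNGAA, the AP-1 site TGANTCA and the antioxidant response core TGACNNNGC were in none of the 8. They were in 7.67%, 6.34% and 10.1% of all windows, so none in 8 was near the background.

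Slc40a1, which encodes ferroportin, had the fewest counts of the 9 genes, at 14 to 55 counts per sample. It was at 2.37 and 1.52 CPM in sham day 1 and at 1.61, 1.38, 0.917 and 1.12 CPM in TBI day 1. Its day 14 values were 2.75, 2.7, 2.27 and 2.99 CPM in sham and 1.72, 0.879, 0.696 and 2.01 CPM in TBI. The groups overlapped at day 1 and did not at day 14. The log2 fold change was -0.63 ± 0.41 at day 1 (SE, 95% interval -1.49 to 0.24, adjusted p = 0.294, edgeR) and -1.02 ± 0.34 at day 14 (SE, 95% interval -1.74 to -0.29, adjusted p = 0.142, edgeR). The lowest values at day 14 were those of TBI replicates 2 and 3, and without the 3 samples with high choroid plexus totals the log2 fold change was -0.50 (adjusted p = 0.771, edgeR). Set against sham day 14, TBI day 1 was 2.13-fold lower (log2 fold change -1.09 ± 0.34, SE, n = 4 and 4, adjusted p = 0.0161, edgeR). That comparison joins injury and day. For sham day 1 against sham day 14 the log2 fold change was -0.46 ± 0.41 (SE, 95% interval -1.34 to 0.41, adjusted p = 0.452, edgeR).

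The iron sensors showed no detectable difference. Aco1, the cytosolic aconitase that becomes iron regulatory protein when it loses its iron-sulfur cluster, ranged from 48.6 to 65 CPM in sham day 1, 49.1 to 60.7 CPM in TBI day 1, 51.5 to 61.3 CPM in sham day 14 and 54.1 to 60.9 CPM in TBI day 14. Its log2 fold change was -0.03 ± 0.14 at day 1 (SE, 95% interval -0.34 to 0.27) and 0.02 ± 0.12 at day 14 (SE, 95% interval -0.23 to 0.27). Ireb2, the regulatory protein that is degraded when iron is plentiful, was 25.9 and 40.1 CPM in sham day 1 and ranged from 24.3 to 34.4 CPM in TBI day 1, 25.7 to 34.8 CPM in sham day 14 and 19.1 to 27.2 CPM in TBI day 14. The groups overlapped for both genes at both days. The log2 fold change of Ireb2 was -0.19 ± 0.21 at day 1 (SE, adjusted p = 0.553, edgeR) and -0.28 ± 0.17 at day 14 (SE, 95% interval -0.65 to 0.09, adjusted p = 0.59, edgeR).

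**Figure D3:**
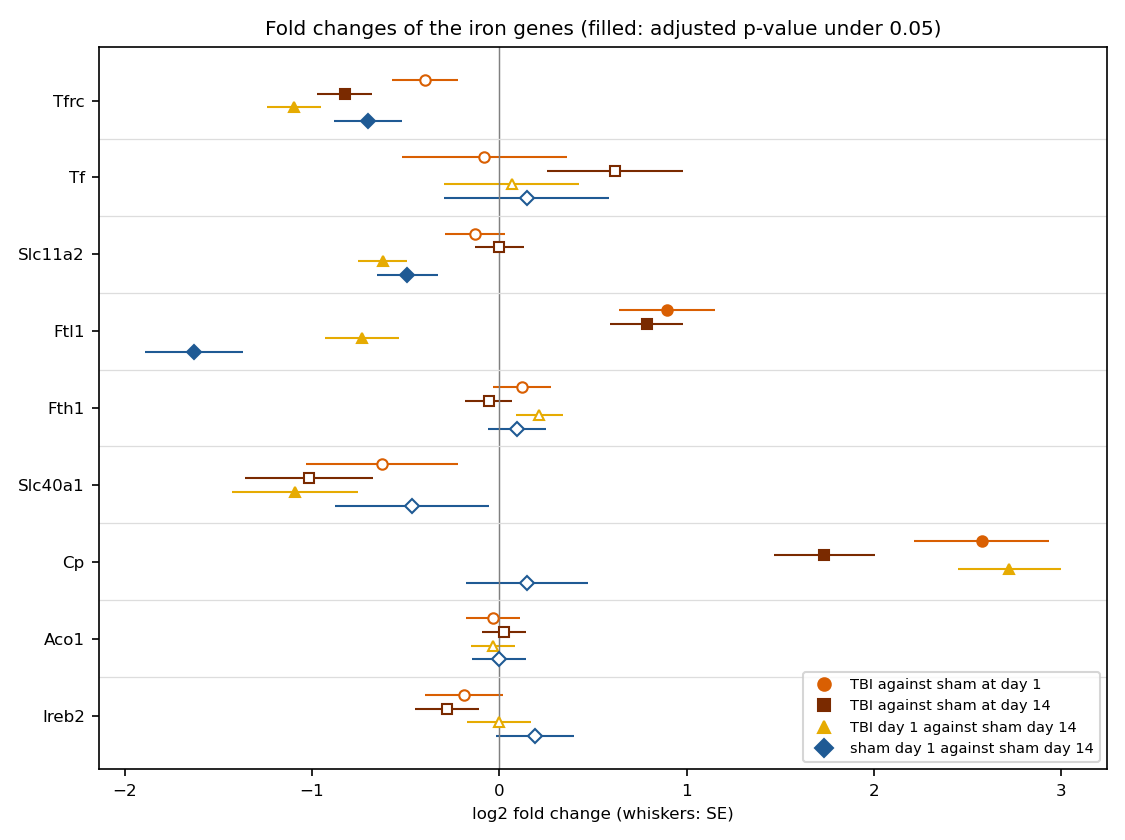
Log2 fold changes of the 9 iron genes with SE, in 4 comparisons: TBI with the sham group of the same day, and TBI day 1 or sham day 1 with sham day 14. Filled symbols have an adjusted p-value under 0.05. Cp is at 2.58 and 1.74 at the 2 days, and Ftl1 is above 0 against its own sham and at -0.73 at day 1 against sham day 14.

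Set against sham day 14 as a common baseline, TBI day 1 had 1 of the 9 genes called higher, Cp, and 4 called lower, Tfrc, Ftl1, Slc11a2 and Slc40a1. In that comparison 25% of all tested genes were called higher and 21% lower. The same 5 calls were made in all 23 alternatives. Between the sham groups 3 of the 9, Tfrc, Ftl1 and Slc11a2, were lower at day 1 and 0 were higher, with 0 higher at an unadjusted p under 0.05 and by limma-voom and DESeq2, against 7.88% of all tested genes lower and 11.3% higher. These comparisons share the sham day 14 or the TBI day 1 samples with those above.

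Other genes of iron and heme handling were read beside the members, starting with those that free and clear heme, through which iron from lost blood reaches the tissue. Of 10 tested, 3 rose at day 1, when 11.2% of all tested genes did, and 1 rose at day 14, when 4.07% did. None was called lower at either day, against 7.93% and 0.365% of all tested genes. Hmox1, which encodes the heme oxygenase that releases iron from heme, was at 9.11 and 5.99 CPM in sham day 1 and at 72.5, 161.6, 99.7 and 67.9 CPM in TBI day 1, and it was at 6.36 to 7.33 CPM in sham day 14 and 23 to 30.5 CPM in TBI day 14. Its log2 fold change was 3.74 ± 0.35 at day 1 (SE, adjusted p = 8.93e-06, edgeR) and 1.95 ± 0.25 at day 14 (SE, adjusted p = 0.000187, edgeR). The scavenger receptor gene Cd163, which takes up hemoglobin bound to haptoglobin, rose at day 1 by 2.88 ± 0.76 on the log2 scale (SE, adjusted p = 0.0166, edgeR). Without sham day 1 replicate 2 the call on Cd163 was lost (2.48, adjusted p = 0.164, edgeR). Hpx, which encodes the heme carrier hemopexin, rose by 2.38 ± 0.57 from 7 and 8 counts in the sham samples (SE, adjusted p = 0.00962, edgeR), and that call too was lost without sham day 1 replicate 2 (2.36, adjusted p = 0.0936, edgeR).

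Markers of blood cells were higher with these genes at day 1 for myeloid cells and did not pass the test for red blood cells. Those of red blood cells had a summed level of 548 and 273 CPM in sham day 1, 451 to 1113 CPM in TBI day 1, 97 to 253 CPM in sham day 14 and 97.4 to 156 CPM in TBI day 14, with 0 of 7 tested markers called at either day. Those of blood-derived myeloid cells, of which 8 of 9 were called higher at day 1, had a summed level of 677 to 1104 CPM in TBI day 1 and 85.8 to 157 CPM in sham day 1. At day 14, when Hmox1 was still higher, their level was 104 to 234 CPM in TBI and 100 to 132 CPM in sham, with 1 of 9 called higher. The share of all tested genes called higher was 11.2% at day 1 and 4.07% at day 14, and lower 7.93% and 0.365%. The myeloid sum in TBI day 1 was mostly Fn1, at 381 to 634 CPM, and Lyz2, at 207 to 406 CPM. Every other myeloid marker was at 25.8 CPM or less there. Of the 234 CPM in TBI day 14 replicate 4, Lyz2 was 153 CPM. The part of blood and of infiltrating cells in the heme genes was not tested.

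Among 12 other genes of iron uptake and reduction, 2 rose and 1 fell at day 1, and 1 rose at day 14. The share called over all tested genes was 11.2% higher and 7.93% lower at day 1, so the day 1 counts were near the background. At day 14 that share was 4.07% higher and 0.365% lower. Lcn2, which encodes a carrier of iron-binding siderophores, was at 4.9 and 1.43 CPM in sham day 1 and at 637, 310.4, 472 and 492 CPM in TBI day 1. By day 14 it was 0.379 to 1.31 CPM in sham and 2.9 to 10.2 CPM in TBI. Its log2 fold change was 7.25 ± 0.63 at day 1 (SE, adjusted p = 6.15e-06, edgeR) and 2.77 ± 0.47 at day 14 (SE, adjusted p = 0.002, edgeR), the largest of any iron gene listed here at each day. Steap4, a metalloreductase gene, was at 0.862 and 0.876 CPM in sham day 1 and at 12.6, 19.3, 11.8 and 11.8 CPM in TBI day 1. It rose by 3.99 ± 0.34 at day 1 (SE, adjusted p = 5.63e-06, edgeR), and at day 14 the log2 fold change was 0.51 ± 0.27 (SE, adjusted p = 0.462, edgeR). Mfi2, which encodes melanotransferrin, a membrane protein that binds iron, was lower at day 1 (log2 fold change -1.30 ± 0.40, SE, adjusted p = 0.0345, edgeR), a call that was lost in 5 of 23 alternatives, among them those without sham day 1 replicate 2 (-1.12, adjusted p = 0.228, edgeR) and without TBI day 1 replicate 2 or 3 (adjusted p = 0.055 and 0.0522). It was also lost without the 3 samples with high choroid plexus totals (-1.47, adjusted p = 0.0632, edgeR).

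Hepcidin, the hormone that removes ferroportin from the membrane, was barely read: its gene Hamp had 0 to 8 counts per sample and was not tested. Of 3 tested genes that control hepcidin, 2 were lower at day 1, against 7.93% of all tested genes. None was called at day 14, when 4.07% of all tested genes were called higher and 0.365% lower. Tmprss6, whose protease restrains hepcidin, was at 2.59 and 1.34 CPM in sham day 1 and at 0.467, 0.649, 0.458 and 0.537 CPM in TBI day 1 (log2 fold change -1.87 ± 0.35, SE, adjusted p = 0.00226, edgeR). That call was lost when only the day 1 samples were fitted (-1.85, adjusted p = 0.0845, edgeR). Hfe, which encodes a partner of the transferrin receptor, was at 8.89 CPM in sham day 1 replicate 1, the sample with the highest choroid plexus total, and at 1.61 CPM in replicate 2. The day 1 log2 fold change of Hfe was -1.86 ± 0.54 (SE, adjusted p = 0.0264, edgeR) and -0.17 without replicate 1 (adjusted p = 0.856, edgeR).

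The genes that deliver iron to ferritin and turn it over, and those of mitochondrial iron and heme synthesis, held no called gene at either day. Of all tested genes, 11.2% were called higher and 7.93% lower at day 1, and 4.07% and 0.365% at day 14. For lists of this size, no call at day 14 was near the background. The first list had 4 tested genes, among them Ncoa4, named here after its values were seen, the receptor that sends ferritin to the lysosome, with log2 fold changes of -0.03 ± 0.15 (SE) at the first time point and 0.05 ± 0.12 (SE) at the second. For the 15 tested genes of the second list the medians were 0.05 and 0.04. The medians of the 10 heme genes were 0.17 and 0.00411, and those of the 12 uptake genes -0.04 and 0.04, beside -0.02 and -0.03 over all tested genes.

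**Figure D4:**
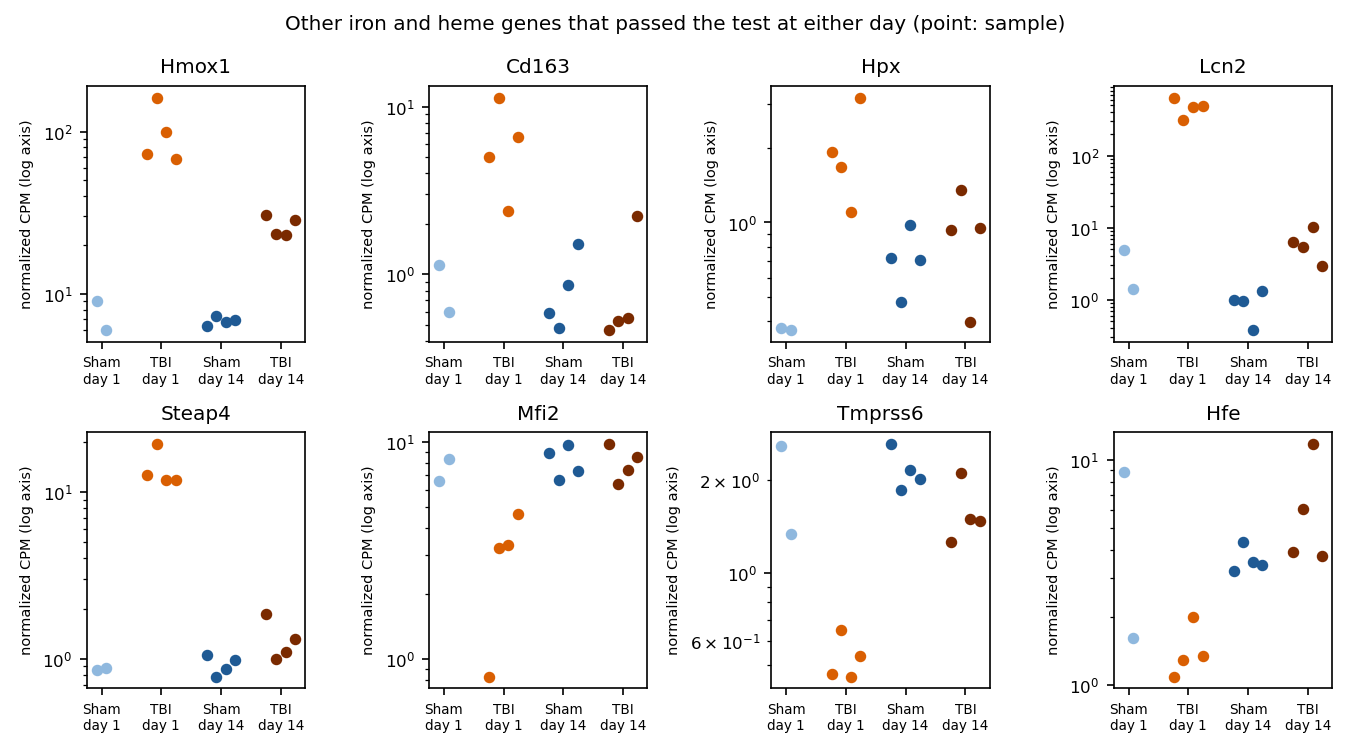
Normalized CPM, on a log axis, of the 8 other iron and heme genes that passed the test at day 1, in each of the 14 samples by group. Lcn2 is at 310.4 to 637 CPM in TBI day 1 and at most 10.2 CPM in TBI day 14, and Hfe is high in sham day 1 replicate 1 at 8.89 CPM.

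The genes whose levels were most like those of each member were found by Pearson's r of log2 CPM over the 14 samples, which share their groups and libraries. Cp was most like Vim (r = 0.98) and Lgals3 (r = 0.98), which encode the filament protein vimentin and galectin-3. Ftl1 was most like Ptprcap (r = 0.96) and Mknk1 (r = 0.95), and Hmcn1 was near Tfrc (r = 0.92). With group means removed, r was 0.92 for Cp and Vim, 0.68 for Ftl1 and Ptprcap, and 0.48 for Tfrc and Hmcn1.

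Among the nearest genes of the other 6 members were Gal3st4 (r = 0.94) and Cnpy2 (r = 0.92) for Tf, Acvr1b (r = 0.97) and Tvp23a (r = 0.95) for Slc11a2, and Gimap8 (r = 0.93) for Fth1. Slc40a1 was nearest to Slc16a4 (r = 0.86) and Asah2 (r = 0.85), Aco1 to Dapk3 (r = 0.87) and Ak3 (r = 0.81), and Ireb2 to Taok1 (r = 0.95) and Far1 (r = 0.94).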

How the data were processed

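Polyadenylated RNA of 14 rat hippocampi was analysed, grouped by their labels. Per the study's methods and the submitters' processing notes, the authors aligned single-end reads to rn5 with STAR 2.4.2a and used featureCounts 1.5.0 with UCSC gene models for counting; strand and multiple-match settings are not given in the sources used here. The deposited values are raw counts, used without change. H3K4me3 peak lists of the series were not used, since no gene annotation of rn5 was used here. Symbols and promoter windows came from RefSeq GRCr8.

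In R 4.3.3, edgeR 4.0.16 was fitted to all 14 samples with 1 mean per group, TMM factors and the default filter by group. Tests were two-sided, quasi-likelihood, and adjusted by Benjamini-Hochberg over 12875 genes at 0.05. CPM used TMM-scaled library sizes, and log2 CPM a prior count of 2. Replicates differed beyond counting noise (chi-squared per degree of freedom 13.3 to 172). The labels give a replicate number and no animal, and each replicate is taken to be 1 rat from the group sizes in the study's Results.

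The members and lists were chosen with earlier results of these data known. Besides the members, the text names up to 3 called genes by absolute log2 fold change per list and day, and the 2 genes of highest Pearson's r with each member, of which some are not reported here.

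Alternatives were limma-voom (limma 3.58.1), DESeq2 1.42.0, median-of-ratios factors, no filter, at least 10 counts in every sample, a replicate block, only the groups compared, a choroid plexus score as covariate and the omission of each sample. Omission of the 3 samples with the highest choroid plexus scores was added after seeing the data. The test was checked on simulated counts. Figures were drawn with matplotlib 3.10.9.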

Additional observations from a re-analysis of the deposited data

Results flagged for a closer look

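Fth1 in sham day 14 replicate 3 was at 812 CPM beside 1006 to 1049 CPM in the other 3 sham samples, a gap that on the log2 CPM scale was 0.838 of the group's range, above Dixon's critical value for 4 samples. Cd163 in TBI day 14 replicate 4 (2.22 CPM beside 0.464 to 0.547 CPM, a gap of 0.904 of the range on the log2 scale) and Steap4 in TBI day 1 replicate 2 (19.3 CPM beside 11.8 to 12.6 CPM, 0.871 of the range on that scale) were also apart. These 3 came from 51 tests of a gene in a group of 4, of which chance flags about 1 in 20.

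Among the named genes of the iron and heme lists outside the 9 members, the TBI effect differed between the days for 4, in a test that called 3.68% of all genes. The effect at day 1 minus that at day 14, on the log2 scale, was 4.48 ± 0.74 for Lcn2 (SE, adjusted p = 0.00533, edgeR), 3.48 ± 0.42 for Steap4 (SE, adjusted p = 0.000595, edgeR) and 1.79 ± 0.39 for Hmox1 (SE, adjusted p = 0.0213, edgeR). The calls on Lcn2 and Steap4 held in every alternative that gave a value, and that on Hmox1 was lost in 4 of 22, among them without sham day 1 replicate 2 (1.51, adjusted p = 0.113, edgeR) and without the 3 samples with high choroid plexus totals (1.91, adjusted p = 0.0796, edgeR). For Hfe it was -2.67 ± 0.70 (SE, adjusted p = 0.0488, edgeR), a call lost in 16 of 22 alternatives. Hfe was at 8.89 CPM in sham day 1 replicate 1 and 11.8 CPM in TBI day 14 replicate 3, the 2 samples with the highest choroid plexus totals. Without the 3 highest samples the difference was -0.28 (adjusted p = 0.768, edgeR).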

How the results depend on the processing

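Counts of called members moved as follows. At day 1 the count was 1 when only the groups compared were fitted, and 1 to 2 with each sample left out in turn (1 without sham day 1 replicate 2). At day 14 it was 4 with only the groups compared, where Tf was added, 2 with the choroid plexus score as a covariate or without the 3 samples of highest score, and 2 to 3 with each sample left out, Ftl1 being the call lost. Between the sham groups it was 2 without a filter, 1 with the choroid plexus score as a covariate, 1 without the 3 samples of highest score, and 1 to 3 with each sample left out (1 without sham day 1 replicate 1). With the replicate block, 2, 3, 0, 5 and 3 members were called at day 1, at day 14, for their difference, for TBI day 1 against sham day 14 and between the sham groups, as without it. The deviations of same-numbered day 14 samples correlated at -0.04 to 0.24, and 2 of 4 TBI samples correlated best with their own number, so the numbers were not taken to pair the samples.

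Sign changes, as log2 fold changes, concerned values that did not pass the test. For Aco1 at day 1 they were 0.0035 with at least 10 counts in every sample, 0.070 with the score covariate, 0.18 without the 3 samples and -0.23 to 0.19 with each sample left out, and at day 14 -0.051 with the covariate and -0.021 to 0.061. For Tf at day 1 they were 0.31 with the covariate, 0.84 without the 3 samples and -0.64 to 0.85, and between the sham groups -0.00643 with limma-voom, -0.25, -0.77 and -0.78 to 0.71. For Slc11a2 at day 14 they were 0.018 with at least 10 counts, 0.035 with only the groups compared, 0.028 with the covariate, 0.049 without the 3 samples and -0.019 to 0.043. Cp between the sham groups was -0.52 without the 3 samples and -0.52 to 0.61, Hfe at day 14 -0.061 with the covariate, and with each sample left out Fth1 at day 14 ran from -0.13 to 0.011 and Ireb2 at day 1 from -0.47 to 0.16. The causes were not tested.

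Over all genes, only fitting the groups compared gave 557 higher and 94 lower at day 1 and 903 and 205 at day 14. Without sham day 1 replicate 2 there were 555 and 367 at day 1. The 47 genes lower at day 14 became 119 with DESeq2, 18 without the 3 samples and 21 to 84 with each sample left out. For the difference between the days limma-voom gave 178 higher and 100 lower, DESeq2 600 and 453, the covariate 118 and 58, and the omission of the 3 samples 189 and 87, beside 288 and 186, and with each sample left out they were 126 to 430 and 78 to 300. Day 1 rests on 2 sham samples, and the standard errors there were larger than at day 14 for each of the 9 members.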
